A study of Mus musculus with 32 samples.

Results

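Control endothelial cells (EC) exposed to TNF and IFN together were compared with the same cells left without cytokine. The comparison used 8 of the 32 libraries of a bulk RNA-seq experiment, 4 labelled si-control + TNF + IFN and 4 labelled si-control, which were chosen by their labels alone, and it covered all 15254 genes with enough counts to be tested. The cells were the Veravec line, mouse lung EC kept in culture with VEGF and bFGF, so that the libraries model 1 cell line in the absence of the other cells of a vessel wall. In the group names TNF is TNFα, used at 10 ng/mL, and IFN is IFNγ, used at 1000 U/mL, with an exposure of 16 h, and the amount of each in the combination is not given separately. Every culture, the no-cytokine group included, had passed through 2 rounds of lipid transfection with siRNA. The si-control groups received a control siRNA, and the 2 further si-control groups used for comparison, si-control + TNF and si-control + IFN, received 1 cytokine each. Finally, si-dnmt and si-dnmt + TNF + IFN received siRNA against Dnmt1, which encodes the maintenance DNA methyltransferase, with 4 libraries in each group. The labels call the 4 libraries of a group biological replicates without saying what was repeated. The p-values measure the spread between libraries within groups, which may be technical. That spread was estimated over all 32 libraries and 8 groups of the series, not from the 8 compared libraries alone. The question was how the control cells respond across the genome when both cytokines act at once.

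The 8 libraries held 17734651 to 23657734 counts, in which 19607 to 21202 genes were detected and the top 10 genes held 6.57% to 8.34%. Mitochondrial genes took 4.43% to 5.77% in si-control and 2.73% to 3.65% in si-control + TNF + IFN, with no overlap. On principal components the cytokines separated the libraries on the first component (66.8% of the variance), and replicates 1 and 2 lay apart from replicates 3 and 4 on the second (15.9%), so that values within each of these sets are given where they matter. All 14 endothelial markers were above 1 CPM in every si-control library (CPM are counts scaled to library size), whereas Vwf and Cldn5 had lowest values of 0.862 and 0.529 CPM in si-control + TNF + IFN, and the summed level of all 14 was 7109 to 10622 CPM in si-control and 4460 to 6294 CPM in si-control + TNF + IFN, with 11 of the 14 called lower. In bulk RNA, fewer cells of a type and less RNA per cell cannot be told apart. Of 12 leukocyte markers 10 lay below 1 CPM in each of the 8 libraries, Cd3e, Adgre1 and Nkg7 were at 0 throughout, and the summed level, made up mostly of Lyz2, was 45.1 to 134 CPM without cytokine and 6.04 to 31.0 CPM with both. The fibroblast markers Lum, Dpt and Tcf21 and the epithelial markers Epcam, Sftpc, Scgb1a1 and Nkx2-1 were at 0. The fibroblast list summed to 5.62 to 7.20 CPM without cytokine, mostly from Pi16, and 22.8 to 35.0 CPM with both, mostly from Dcn. These 2 markers moved in opposite directions. Dcn rose from 0.448–1.91 to 20.5–34.1 CPM, and Pi16 fell from 4.30–5.47 to 0.048–0.156 CPM. The pericyte and smooth muscle list summed to 8.21 to 28.2 CPM without cytokine and 19.3 to 65.6 CPM with both, the epithelial list to 6.85 to 22.6 and 3.65 to 7.56 CPM, and the lymphatic endothelial list to 582 to 1166 and 941 to 1276 CPM. The part of these shifts in the results below was not tested.

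TNF and IFNγ are the cytokines with which activated T cells and macrophages alert the endothelium. TNF binds its receptors on the EC surface and frees NF-kB, which enters the nucleus and switches on adhesion molecules, chemokines and its own inhibitors. IFNγ binds IFNGR1 and IFNGR2, the JAK1 and JAK2 kinases are activated, and transcription factors of the STAT family bind GAS elements in genes such as Irf1, whose product in turn binds ISRE elements in a second wave of genes for antigen presentation and cell-autonomous defence. An EC under both signals is known to gather T cells, to display antigen to them and to give up part of its resting programme.

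Upstream sequences are shown for genes that carry the results. Those that rose are the CXCR3 ligands Cxcl9 and Cxcl10, the adhesion molecule Icam1, the transcription factor Irf1, the GTPase Gbp2, the ubiquitin-like modifier Ubd and the class II gene H2-Aa, and the water channel Aqp1 showed the largest fall of all eligible genes. Each window holds the 250 bases before the annotated start on the gene's own strand, from RefSeq on build GRCm38.p6, since the build used for counting is not given in the sources used here. Capitals mark matches to a GAS core (TTCNNNGAA), an ISRE core (GAAANNGAAA) or a kB site (GGGNNNTTCC) on either strand, and no matches overlapped. Only these letters were searched, so that lower case does not show the absence of other sites for the same factors. The windows lie at chr5:92328080-92328329 (minus strand) for Cxcl9, chr5:92348890-92349139 (minus) for Cxcl10, chr9:21015690-21015939 (plus) for Icam1, chr11:53769764-53770013 (plus) for Irf1, chr3:142620413-142620662 (plus) for Gbp2, chr17:37193642-37193891 (plus) for Ubd, chr17:34287824-34288073 (minus) for H2-Aa and chr6:55336049-55336298 (plus) for Aqp1. Irf1 has 2 windows in the reference and the first is shown.
Cxcl9: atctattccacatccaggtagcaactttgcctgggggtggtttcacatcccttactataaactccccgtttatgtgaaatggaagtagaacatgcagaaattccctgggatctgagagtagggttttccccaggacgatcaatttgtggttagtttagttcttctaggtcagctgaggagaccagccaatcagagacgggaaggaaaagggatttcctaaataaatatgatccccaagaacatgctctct
Cxcl10: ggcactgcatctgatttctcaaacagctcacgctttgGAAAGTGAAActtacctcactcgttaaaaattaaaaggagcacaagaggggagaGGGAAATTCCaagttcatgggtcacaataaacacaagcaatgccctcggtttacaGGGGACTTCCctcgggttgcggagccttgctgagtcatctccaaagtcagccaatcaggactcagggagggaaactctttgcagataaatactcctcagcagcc
Icam1: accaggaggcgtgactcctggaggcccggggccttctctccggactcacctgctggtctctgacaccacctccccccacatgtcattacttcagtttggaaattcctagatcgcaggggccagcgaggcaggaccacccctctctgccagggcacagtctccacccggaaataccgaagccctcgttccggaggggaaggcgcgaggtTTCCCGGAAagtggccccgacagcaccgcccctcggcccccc
Irf1: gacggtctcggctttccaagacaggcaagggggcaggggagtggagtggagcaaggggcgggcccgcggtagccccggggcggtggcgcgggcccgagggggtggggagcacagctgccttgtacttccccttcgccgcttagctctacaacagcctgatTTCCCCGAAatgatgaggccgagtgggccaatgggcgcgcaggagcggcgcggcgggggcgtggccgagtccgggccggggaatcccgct
Gbp2: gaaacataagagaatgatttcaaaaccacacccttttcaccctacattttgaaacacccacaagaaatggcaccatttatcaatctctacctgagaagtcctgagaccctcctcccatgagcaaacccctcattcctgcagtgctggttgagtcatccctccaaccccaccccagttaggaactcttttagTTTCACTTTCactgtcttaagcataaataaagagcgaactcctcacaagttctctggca
Ubd: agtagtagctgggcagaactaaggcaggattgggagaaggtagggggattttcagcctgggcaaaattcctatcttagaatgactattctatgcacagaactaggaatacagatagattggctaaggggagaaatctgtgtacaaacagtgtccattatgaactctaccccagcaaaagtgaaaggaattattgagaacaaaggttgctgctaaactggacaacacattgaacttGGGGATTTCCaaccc
H2-Aa: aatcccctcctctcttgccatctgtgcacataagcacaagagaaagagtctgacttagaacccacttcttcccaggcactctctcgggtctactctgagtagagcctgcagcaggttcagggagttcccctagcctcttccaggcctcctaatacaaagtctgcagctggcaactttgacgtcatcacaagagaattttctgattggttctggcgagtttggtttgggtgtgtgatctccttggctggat
Aqp1: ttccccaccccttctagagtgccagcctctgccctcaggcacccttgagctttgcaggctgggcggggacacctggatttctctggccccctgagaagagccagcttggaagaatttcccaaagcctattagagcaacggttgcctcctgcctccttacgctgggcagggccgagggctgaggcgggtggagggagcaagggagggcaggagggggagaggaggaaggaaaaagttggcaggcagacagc

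The Cxcl10 window held an ISRE core 213 to 204 bases before the start and kB sites at 159 to 150 and 104 to 95 bases. A GAS core stood 42 to 34 bases before the start of Icam1 and another 90 to 82 bases before that of Irf1. In Gbp2 an ISRE core lay 59 to 50 bases upstream, and in Ubd a kB site lay 15 to 6 bases upstream. The windows of Cxcl9, H2-Aa and Aqp1 held none of these letters. Over all 32851 windows of the reference, 7.02% held a GAS core, 2.98% an ISRE core and 4.65% a kB site. Among genes that rose at least 4-fold, 464 of 716 had a window, and of these 11% held a GAS core, 15.3% an ISRE core and 9.48% a kB site. For the 313 of 469 genes that fell at least 4-fold and had a window the shares were 6.71%, 2.56% and 5.75%. Median GC content was 52% in the windows of the raised genes, 58.8% in those of the lowered genes and 59.6% in those of all genes tested, which held the motifs in 6.09%, 2.82% and 5.23%. These shares are a description of base sequence and were not tested.

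Both cytokines together raised 3587 genes, 23.5% of those tested, and lowered 3303, 21.7%. Log2 fold changes are given with their standard error (±), and adjusted p-values come from edgeR's quasi-likelihood test with Benjamini-Hochberg adjustment over all 15254 genes, where a gene is called at an adjusted p under 0.05. The 4 libraries of one group lay entirely above those of the other in 6017 genes, 39.4% of those tested. At 2-fold or more, 1477 genes rose and 1360 fell. At 16-fold or more by the fitted values, which for genes with few counts depend on the prior count, 278 rose and 86 fell, and at 64-fold or more the counts were 112 and 13. The median log2 fold change of all genes tested was -0.01, and 49.5% of genes lay above 0. The scaling of library sizes (TMM) sets the bulk of genes near 0, so that this balance follows at least in part from the scaling. The TMM factors were 0.991 to 1.028 in si-control and 0.8804 to 0.9259 in si-control + TNF + IFN, with no overlap. Of the 6890 called genes, 6718 (97.5%) kept their direction both in replicates 1 and 2 alone and in replicates 3 and 4 alone. The calls were made from these same libraries, so that this share follows largely from the calls and is no independent repeat. Genes that rose at least 4-fold together took 1.28% to 1.38% of the counts of a si-control library and 10.1% to 14.2% of a si-control + TNF + IFN library.

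**Figure D1:**
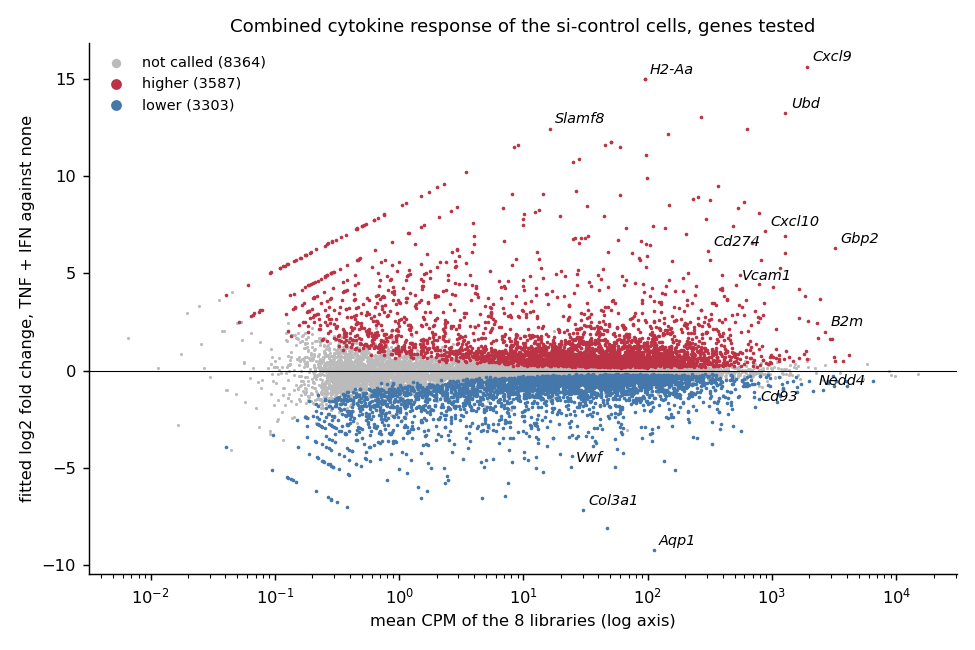
Mean CPM over both groups (log axis) against the log2 fold change of si-control + TNF + IFN over si-control for 15254 genes, with genes called higher and lower coloured and named genes labelled. The upper arm reaches far beyond 64-fold (112 genes) while 13 genes lie below the same distance on the lower side.

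Genes outside the naming rule that are given by range were picked with their values in view. Among receptors, kinases, STATs and brakes of the interferon pathway, 10 of 20 members rose, 3 fell and 7 were not called, with a median log2 fold change of 0.51. Over all genes tested, 23.5% rose and 21.7% fell. Jak2, the kinase paired with the IFNγ receptor, stood at 41.03, 47.4, 47.2 and 54.5 CPM in si-control and at 269, 272, 282 and 282 CPM in si-control + TNF + IFN (2.54 ± 0.12, adjusted p = 4.76e-16). The groups were far apart, and the 4 cytokine-treated libraries were close to each other. Among receptors, Ifngr1 rose by 0.88 on the log2 scale (adjusted p = 1.93e-07) and Ifnar2 by 1.25 (adjusted p = 9.07e-07), while Ifngr2 spanned 83.8–147 and 100.2–106 CPM and was not called. The call of Ifnar1 (-0.50, adjusted p = 0.0467) was lost on leaving out si-control replicate 1 or 2 or any 1 of the 4 si-control + TNF + IFN libraries, with adjusted p up to 0.223 (without si-control replicate 2). Stat4, at a low level (-1.66, adjusted p = 0.0106), lost its call without si-control replicate 4 (-1.33, adjusted p = 0.0533).

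Of 7 brakes of the pathway, 4 rose, 1 fell and 2 were not called. Socs1, which binds and blocks JAK kinases, had 0.7502, 0.795, 2.59 and 1.52 CPM in si-control and 57.3, 45.5, 29.5 and 35.5 CPM in si-control + TNF + IFN (4.87 ± 0.30, adjusted p = 1.12e-13). Usp18, which removes ISG15 and restrains the type I interferon receptor, rose by 3.13 ± 0.32, and its cytokine-treated levels of 704, 643, 284 and 293 CPM were higher in replicates 1 and 2. Ptpn2, a phosphatase of JAKs and STATs, rose by 1.53 ± 0.08 from 17.3–21.4 to 53.7–58.8 CPM. Socs3 spanned 14.8–42.3 and 24.3–69.1 CPM and was called only with the replicate number as a block (adjusted p = 5.86e-04), and Socs2 fell by 1.10.

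Interferon regulatory factors (IRFs) rose in 6 of 7 tested members (median 2.29). Irf1, an early target of IFNγ signalling, had 40.7, 41.96, 32.6 and 27.7 CPM in si-control and 1218, 1019, 1060.3 and 1008 CPM with both cytokines (4.91 ± 0.17, adjusted p = 6.13e-19). Irf5, better known from macrophages, moved from 0.6096, 0.265, 0.483 and 0.538 CPM to 29.2, 30.2, 22.7 and 22.5 CPM (5.75 ± 0.31, adjusted p = 9.74e-15). Every cytokine-treated library lay far above every control library for both. Irf8 rose by 3.24 ± 0.40, from 25.2–42.9 to 226–440.0 CPM, and Irf7, the factor of the type I interferon loop, by 2.29. Irf2, a counterpart of Irf1, rose by 1.57 and Irf9 by 0.35. Irf3 was not called (-0.12, adjusted p = 0.384), and Irf4 was too low to be tested.

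The NF-kB system rose in 23 of 29 members, with 1 lower and a median of 1.04. Tnfaip3, which encodes the ubiquitin-editing inhibitor A20, stood at 19.6, 22.6, 20.1 and 19.8 CPM in si-control and 218, 213, 262 and 255 CPM in si-control + TNF + IFN (3.53 ± 0.19, adjusted p = 6.11e-15). The rise exceeded the spread of either group by a wide margin. Relb, a subunit of the non-canonical dimer, had 20.7, 23.2, 12.3 and 10.6 CPM and 82.6, 67.6, 89.3 and 84.7 CPM (2.28 ± 0.18, adjusted p = 3.10e-11), and its partner Nfkb2 rose by 1.62 ± 0.14. Rel and Rela, subunits of the canonical dimers, rose by 1.04 and 0.91, and Nfkb1 by 0.40. Inhibitors of the IkB family rose together, Nfkbie by 2.64, Nfkbib by 1.48 and Nfkbia by 1.39. Among adaptors, Birc3 (2.23), Traf1 (2.02) and Ikbke (1.86) rose most, and Tnip1, an A20 partner, rose by 2.40. Of the receptors, Tnfrsf1b (TNFR2) rose by 0.88 and Tnfrsf1a (TNFR1) fell by 0.30. Map3k14 and Ikbkb, the kinases at the head of the cascade, were not called.

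Chemokines made up one of the most strongly raised groups, with 18 of 19 tested members higher, none lower and a median log2 fold change of 4.14. Cxcl9, a ligand of CXCR3, a chemokine receptor of T cells, was at 0.0469, 0.159, 0.0439 and 0.0448 CPM in si-control, 3 counts or fewer in each library, and at 4543, 4356, 3147 and 3214 CPM in si-control + TNF + IFN. The ratio of the groups was 54859.5 (95% interval 25204 to 149489), where the exact interval covers counting error only. Cxcl10, a second CXCR3 ligand, had 9.47, 6.57, 16.6 and 15.6 CPM without cytokine and 1973, 2045, 1440.2 and 1531 CPM with both (7.17 ± 0.36, adjusted p = 1.51e-15). Cxcl11, the third, moved from 0, 0, 0.0439 and 0.179 CPM to 415, 396, 184 and 175 CPM (12.15 ± 0.90, adjusted p = 7.47e-12). For all 3 ligands the cytokine-treated replicates 1 and 2 lay above replicates 3 and 4, and all lay far above the controls.

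CC chemokines and fractalkine rose in 9 of 10 tested members, with a median of 5.16. Ccl5, which draws T cells and monocytes, stood at 1.92, 2.07, 3.65 and 3.81 CPM in si-control and 1309.9, 1352, 1091 and 986 CPM with both cytokines (8.68 ± 0.48, adjusted p = 1.44e-14). Ccl2, the main monocyte attractant, was already abundant at 1077, 1038, 344 and 345 CPM and reached 4746, 4358, 3114 and 3253 CPM (2.46 ± 0.31, adjusted p = 2.28e-07). Ccl8 and Ccl12, close relatives of Ccl2 that can share reads with it, had ratios of 2454 (95% interval 679 to 20273) and 2187 (95% interval 605 to 18067) over 3 counts or fewer in the control libraries. Cx3cl1, the membrane-bound fractalkine, rose by 4.04 from 6.94–11.97 to 139–196 CPM, and Ccl7 rose by 5.69. Ccl25 was not called, and Ccl3, Ccl11 and Ccl17 were too low to be tested. The 4 neutrophil-attracting CXC chemokines also rose (median 3.11): Cxcl2 by 4.13, Cxcl3 by 3.86, Cxcl1 by 2.36 and Cxcl5 by 1.00. Cxcl16, a membrane-anchored chemokine, moved from 3.97–5.06 to 68.3–81.9 CPM (4.14 ± 0.17, adjusted p = 4.22e-17). Cxcl12, which holds leukocytes and progenitors in place, rose by 1.502, although its control levels of 33.2, 27.9, 109.8 and 101 CPM already differed between the replicate sets.

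Interleukins, colony-stimulating factors and their receptors were called higher in 13 of 21 tested members and lower in 2 (median 2.13), beside 23.5% and 21.7% of all genes tested. Il15, a survival factor for memory T cells and NK cells, rose by 3.27 from 7.64–8.91 to 69.7–93.96 CPM. Its presenting receptor Il15ra had 8.58, 10.4, 6.76 and 5.92 CPM in si-control and 211, 199, 151 and 143 CPM in si-control + TNF + IFN (4.48 ± 0.26, adjusted p = 3.07e-14). Il15 and Il15ra thus rose together, in every cytokine-treated library. Lif, a cytokine of the IL-6 family, rose by 4.65 ± 0.31, and Csf1, the macrophage growth factor, by 2.15. Il18 rose by 5.40 from at most 0.224 CPM, and Il18bp, its soluble antagonist, by 4.28 from 2.59–7.205 to 64.5–117 CPM. Il27 reached 4.23, 4.01, 2.22 and 2.06 CPM over 1 control library with counts, a ratio of 272 (95% interval 48.4 to 10796). Il6 spanned 1.21–13.5 and 4.39–36.2 CPM and was called only with the replicate block (adjusted p = 0.00305), Il7 and Il33 were not called, and Il1b was at 0 in every library compared. The receptors Il6ra (-1.06) and Il1r1 (-0.81) fell.

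**Figure D2:**
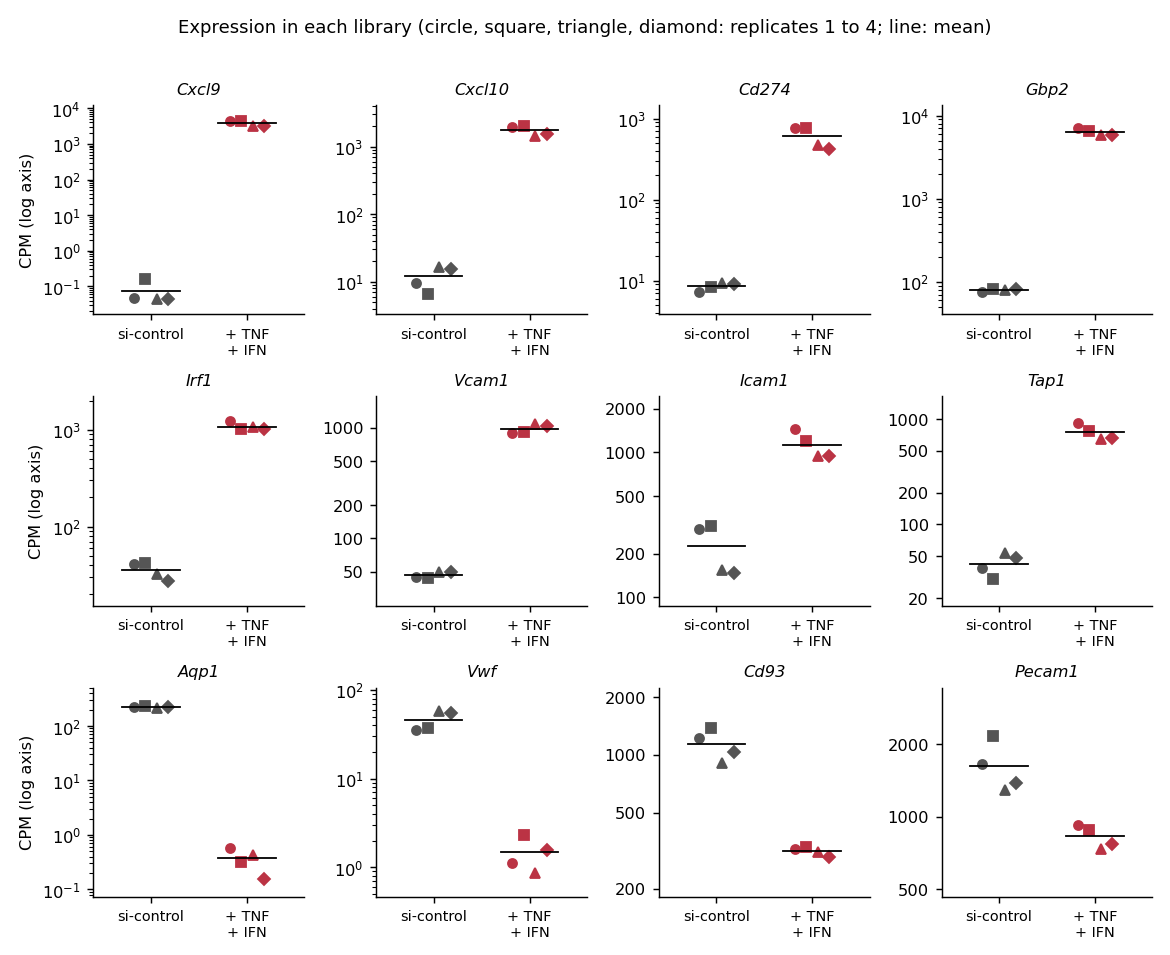
CPM in each of the 4 si-control and 4 si-control + TNF + IFN libraries (log axis) for 12 genes, with a bar at the group mean. Every panel shows the groups apart, upward for Cxcl9 to Tap1 (Cxcl9 at most 0.159 CPM in the control libraries and at least 3147 CPM with both cytokines) and downward for Aqp1, Vwf, Cd93 and Pecam1.

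Leukocyte adhesion molecules moved in both directions, 7 of 16 higher and 5 lower (median 0.48), beside 23.5% and 21.7% of all genes tested. Vcam1, which binds the integrin α4β1 of T cells and monocytes, was at 44.5, 43.5, 49.8 and 49.5 CPM in si-control and 897, 911, 1091 and 1039 CPM in si-control + TNF + IFN (4.39 ± 0.13, adjusted p = 1.12e-20). Both groups were tight and lay far apart. Icam1, the ligand of LFA-1, had 295, 309, 153 and 147 CPM without cytokine and 1450.1, 1197, 946 and 938 CPM with both (2.33 ± 0.23, adjusted p = 1.56e-09), and its log2 fold change was 2.15 in replicates 1 and 2 and 2.65 in replicates 3 and 4. Sele (E-selectin), a capture molecule of inflamed vessels, moved from 31.8, 35.8, 28.3 and 27.02 CPM to 43.8, 43.7, 67.99 and 70.3 CPM (0.88 ± 0.25, adjusted p = 0.00455). Selp (P-selectin), stored with von Willebrand factor, fell by 1.38, from 483–846 to 212–269.9 CPM. Madcam1, the gut addressin, rose by 5.90 and lay at 10.5, 8.84, 1.97 and 2.64 CPM. Cd44 and Cd47 rose by 1.16 and 1.271, whereas Jam2 (-2.47), Mcam (-1.17), Cd34 (-0.87) and Cd99l2 (-0.38) fell. Jam3 and Alcam were not called, and Icam2 and Pvr only with the replicate block (adjusted p = 0.015 and 1.72e-05).

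Genes of antigen presentation by MHC class I rose, and all 12 members of the loading pathway were called higher, with a median log2 fold change of 2.54. Tap1, a subunit of the peptide transporter, stood at 38.97, 30.2, 53.01 and 48.00 CPM in si-control and 924, 769, 655 and 670.2 CPM with both cytokines (4.15 ± 0.21, adjusted p = 1.74e-15). Nlrc5, the class I transactivator, had 24.4, 18.5, 20.1 and 20.6 CPM and 459, 426, 268 and 291 CPM (4.11 ± 0.27, adjusted p = 4.05e-13). B2m, the light chain, was abundant without cytokine at 1225, 1259, 888 and 917 CPM and reached 4504, 5381, 3738 and 3572 CPM (2.003 ± 0.24, adjusted p = 6.01e-08). Transporter, transactivator and light chain thus rose in each cytokine-treated library. The heavy chains H2-K1 and H2-D1 rose by 3.85 and 2.56, Tapbp and Tapbpl, which edit peptides, by 2.52 and 3.51, and Erap1, which trims them, by 2.11. The smallest rises belonged to the general chaperones Canx (0.41), Pdia3 (0.62) and Calr (0.70). Among non-classical class I genes 10 of 12 rose (median 3.46), led by H2-Q6 (8.78) and H2-Q7 (7.82), while Cd1d1 (-1.18) and Mr1 (-0.58), which present lipids and vitamin metabolites, fell. Near-identical H2-Q and H2-T copies can share reads, so that the value of a single one is uncertain.

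All 5 immunoproteasome genes rose, with a median of 3.28, against 0.43 in the constitutive subunits, of which 9 of 10 rose. Psmb9, a catalytic subunit that replaces Psmb6, moved from 2.72, 2.12, 4.304 and 3.72 CPM to 217, 186, 183 and 185 CPM (5.89 ± 0.22, adjusted p = 4.63e-18). Psmb8 rose by 4.37 ± 0.29 and Psmb10 by 3.28 ± 0.18. The PA28 regulator genes Psme1 and Psme2 rose by 2.41 and 2.69. Psmb5, which Psmb8 displaces, spanned 56.9–89.9 and 78.9–87.3 CPM and was not called.

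MHC class II genes went from near or at 0 to substantial levels, with 10 of 12 tested members called higher and 1 lower. Ciita, the class II transactivator, spanned 0–0.212 CPM in si-control but 118–308 CPM with both cytokines (11.10 ± 0.89, adjusted p = 3.15e-11). H2-Aa had 0 counts in all 4 si-control libraries and 328, 251, 86.8 and 87.8 CPM with both cytokines, at least 1332-fold higher when 0 is taken to allow 3 counts per library (a mean of 0.141 CPM). H2-Ab1 was likewise at 0 and then at 329, 255, 84.9 and 84.2 CPM, also at least 1332-fold. Cd74, the invariant chain, reached 794, 711, 343 and 308 CPM, a ratio of 9433 (95% interval 4042 to 29054). For these 3 genes, replicates 1 and 2 of the cytokine-treated group lay above replicates 3 and 4 by more than 2-fold. H2-DMb1, part of the peptide exchanger, had a ratio of 4456 (95% interval 1233 to 36798). The median log2 fold change of the list was 10.66 as fitted and 8.57 with genes at 0 set to their bound. Rfx5, a constitutive promoter-binding factor, rose by 1.40, Rfxap fell by 0.42 and Rfxank was not called.

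Guanylate-binding proteins (GBPs), GTPases that attack the vacuoles of intracellular microbes, rose in 11 of 11 members with a median of 6.55. Gbp2 was at 76.3, 82.1, 78.6 and 82.5 CPM in si-control and at 7057, 6591, 5782 and 5886 CPM in si-control + TNF + IFN (6.31 ± 0.24, adjusted p = 7.55e-18). Gbp10 moved from 2.16, 3.66, 3.82 and 3.23 CPM to 1161, 1155, 955 and 980.5 CPM (8.37 ± 0.40, adjusted p = 5.04e-16), and Gbp8 from 0.6096, 0.424, 0.878 and 1.21 CPM to 328, 319, 269 and 267 CPM (8.53 ± 0.29, adjusted p = 6.13e-19). The smallest rise of the family, that of Gbp9, was 2.53. Of the related immunity-related GTPases 7 of 8 rose (median 3.98), among them Tgtp2 (6.05), Igtp (5.70), Iigp1 (4.32) and Irgm1 (2.72), and only Irgq (-0.31) fell. The GBPs of the mouse clusters and the Tgtp1 and Tgtp2 pair are similar in sequence, so that reads may be split between them.

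Antiviral effectors rose in 38 of 41 tested members (median 2.51). Mx1, a dynamin-like inhibitor of influenza viruses, had 1.36, 0.795, 3.38 and 3.41 CPM without cytokine and 228, 218, 79.3 and 68.7 CPM with both (6.03 ± 0.56, adjusted p = 6.79e-10). Oas3, which makes the second messenger that activates RNase L, moved from 9.097, 5.19, 20.2 and 19.6 CPM to 420.2, 393, 324 and 332 CPM (4.76 ± 0.32, adjusted p = 6.46e-13). Both were lower in replicates 3 and 4 than in replicates 1 and 2 after cytokine, more so for Mx1. Others with large rises were Oas2 (4.70), Ifit2 (4.48), Samhd1 (3.84) and Rsad2 (3.63). Ifi27 fell by 1.12, and Ifitm2 was not called. Slfn1 had 0 counts in every control library and 4.99, 6.29, 3.14 and 3.81 CPM with both cytokines, at least 32.2-fold. Among ubiquitin-like conjugation genes 6 of 7 rose (median 2.41). Ubd, which encodes FAT10, a tag that sends proteins to the proteasome, moved from 0.281, 0.212, 0.132 and 0.403 CPM to 3326, 3110.3, 1899.6 and 1888 CPM (13.24 ± 0.84, adjusted p = 3.04e-13), and Isg15 and its ligase Herc6 rose by 2.41 and 4.08. Sensors of nucleic acids and bacteria rose in 11 of 14 members (median 1.75). Tlr2, a sensor of bacterial lipoproteins, led them, from 33.1, 45.5, 20.6 and 22.9 CPM to 457, 409, 329 and 331 CPM (3.65 ± 0.29, adjusted p = 2.51e-11), while Tlr4 and Ticam1 were not called and Mavs fell by 0.47.

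Genes of cell death rose in 16 of 27 tested members and fell in 6 (median 1.06), beside 23.5% and 21.7% of all genes tested. The share that fell was thus close to that of all genes. Zbp1, a sensor of Z-form nucleic acids that can start necroptosis, was at 3.42, 2.75, 3.86 and 2.06 CPM in si-control and at 458, 428, 365 and 349 CPM in si-control + TNF + IFN (7.04 ± 0.36, adjusted p = 2.08e-15). Mlkl, the executioner of necroptosis, moved from 73.7–95.9 to 390.0–465 CPM (2.35 ± 0.10, adjusted p = 6.54e-17), but Ripk3, the kinase between them, lay at 4.503–5.71 and 3.97–6.24 CPM and was not called. The pyroptosis genes Casp4 (2.22) and Gsdmd (1.55) rose, and Nlrp3 rose from 3 counts or fewer per library by a ratio of 39.4 (95% interval 15.1 to 147). Death receptor genes moved apart: Fas rose from 3.798, 5.99, 4.87 and 6.86 CPM to 42.97, 45.9, 74.5 and 73.03 CPM (3.46 ± 0.25, adjusted p = 4.80e-12), the ligand Tnfsf10 (TRAIL) rose by 4.27, and its receptor Tnfrsf10b fell by 0.64. Casp8, which acts below the death receptors, rose by 0.63. Among survival genes, Cflar, the caspase-8 inhibitor, rose by 1.34 and Bcl2 fell by 0.82.

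Ligands that T cells read were called higher in 8 of 13 tested members and lower in 2 (median 0.75), beside 23.5% and 21.7% of all genes tested. Cd274, which encodes PD-L1, stood at 7.27, 8.32, 9.31 and 9.05 CPM in si-control and 758, 771, 466 and 422 CPM with both cytokines (6.15 ± 0.30, adjusted p = 7.68e-16). On the co-stimulatory side, Cd40 moved from 1.22, 0.583, 1.32 and 0.583 CPM to 16.3, 16.3, 7.82 and 8.83 CPM (3.72 ± 0.32, adjusted p = 1.64e-10). Both separated the groups completely, with higher cytokine-treated levels in replicates 1 and 2. Icosl, the ICOS ligand, had 0, 0.05298, 0 and 0.0448 CPM and 1.06, 0.7803, 0.493 and 1.11 CPM, a ratio of 37.4 (95% interval 9.96 to 316) over very few counts. Tnfsf4 (OX40 ligand) overlapped between the groups, at 3.66, 5.14, 3.03 and 2.96 CPM and 3.697, 5.202, 7.82 and 7.404 CPM. Its log2 fold change of 0.71 ± 0.23, adjusted p = 0.0123 was 0.04 in replicates 1 and 2 alone (adjusted p = 0.900), and the call was lost without si-control replicate 4 (0.60, adjusted p = 0.0526), without si-control + TNF + IFN replicate 3 (0.55, adjusted p = 0.0701) and without its replicate 4 (0.59, adjusted p = 0.0538). Tnfrsf14 (HVEM) rose by 3.31 from 0.583–1.274 CPM, Lgals9 rose by 0.53, and Btnl9 (-3.33) and Cd276 (-0.47) fell. Cd86, Cd70, Pdcd1lg2 and Vtcn1 were too low to be tested.

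**Figure D3:**
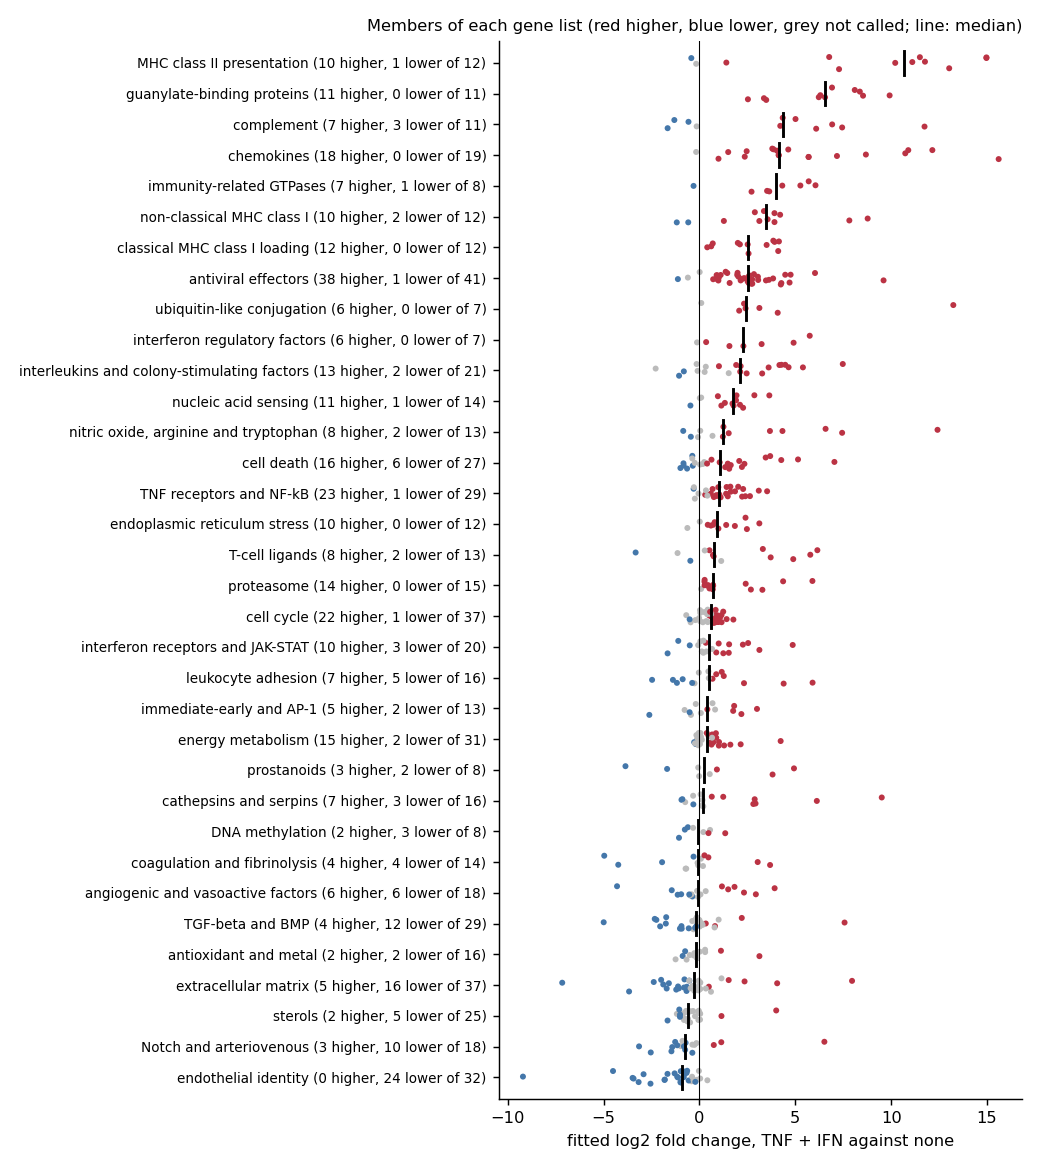
Log2 fold change of si-control + TNF + IFN over si-control for the tested members of each gene list, 1 point per gene red if called higher, blue if lower and grey if not called, with a line at the list median. Medians run from 10.66 in the MHC class II list to -0.91 in the endothelial identity list.

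Among genes of nitric oxide, arginine and tryptophan metabolism 8 of 13 rose and 2 fell (median 1.25), beside 23.5% and 21.7% of all genes tested. Nos2, the inducible nitric oxide synthase, was at 0.234, 0.583, 0 and 0.134 CPM in si-control and at 1701, 1411, 965 and 973 CPM in si-control + TNF + IFN (12.42 ± 0.81, adjusted p = 4.37e-13). Nos3, the endothelial synthase, fell by 0.84, from 235–269 to 131–140.5 CPM. The inducible and the endothelial isoform thus moved in opposite directions. Gch1, which makes the cofactor of both, rose by 1.25, as did the arginine carriers Slc7a1 (1.22) and Slc7a2 (4.33). Ido1, the first enzyme of tryptophan breakdown, moved from 0.188, 0.212, 0.659 and 1.17 CPM to 70.9, 75.1, 34.5 and 39.5 CPM (6.58 ± 0.49, adjusted p = 8.47e-12), and Wars, the tryptophanyl-tRNA synthetase, rose by 3.68 from 54.4–69.96 to 731–919.8 CPM. Acod1, which makes itaconate, rose by 7.44 although its control levels of 1.73, 3.34, 0 and 0.134 CPM were uneven. Asl and Ddah1 were not called, and Ass1 only with the replicate block (adjusted p = 2.62e-04).

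Complement components rose in 6 of 6 tested members (median 5.55). C1s1, a protease of the first component, had 8.67, 11.1, 1.19 and 1.25 CPM in si-control and 1263, 1093, 720.5 and 757 CPM in si-control + TNF + IFN (7.44 ± 0.80, adjusted p = 1.05e-08). C4b and Cfb rose by 6.92 and 6.09, and C3 by 4.22 from 32.7–341 to 1753–4899 CPM. Serping1, the inhibitor of the first component, reached 143, 128, 65.6 and 64.8 CPM from 3 counts or fewer per library, a ratio of 4381 (95% interval 1212 to 36185). Of 5 regulators 3 fell. Cd59a, a surface inhibitor of the membrane attack complex, fell from 48.3, 43.9, 37.6 and 43.96 CPM to 13.4, 13.6, 14.04 and 14.01 CPM (-1.66 ± 0.14, adjusted p = 1.94e-10) and Cd55 fell by 0.57. Among cathepsins and serpins 7 of 16 rose and 3 fell, or 5 with the replicate block (median 0.18). Over all genes tested, 23.5% rose and 21.7% fell. Ctss, the protease that trims the invariant chain, rose by 6.12, Serpina3f by 9.51 and Serpinb9, which blocks granzyme B, by 2.81, while the lysosomal proteases Ctsd (-0.93) and Lgmn (-0.89) fell.

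Coagulation and fibrinolysis genes were called higher in 4 of 14 tested members and lower in 4 (median -0.08). These shares are not far from the 23.5% and 21.7% of all genes tested. The procoagulant genes and the anticoagulant and fibrinolytic genes each had 2 called higher and 2 lower, so that the list shows no common direction. F3, tissue factor, which starts coagulation, rose from 1.266, 1.17, 3.38 and 3.899 CPM in si-control to 8.02, 8.64, 32.4 and 31.9 CPM in si-control + TNF + IFN (3.04 ± 0.68, adjusted p = 5.31e-04). Vwf, the platelet tether stored in EC, went the other way, from 35.6, 36.98, 57.3 and 55.6 CPM to 1.104, 2.34, 0.862 and 1.59 CPM (-4.96 ± 0.33, adjusted p = 5.33e-13). Plat, the tissue plasminogen activator, fell from 195, 224, 27.9 and 31.5 CPM to 8.64, 8.22, 4.43 and 3.97 CPM (-4.23 ± 0.59, adjusted p = 1.01e-06), and F8 fell by 1.95. Tissue factor thus rose while the plasminogen activator and the platelet tether fell, and Thbd and Procr, the thrombomodulin and protein C receptor genes, were not called. Tfpi, the tissue factor pathway inhibitor, changed by -0.31, which was not called on leaving out replicate 1, 2 or 4 of si-control or replicate 1, 3 or 4 of si-control + TNF + IFN (adjusted p = 0.0509 to 0.0801), and Anxa2 by 0.47, which was not called on leaving out replicate 1 or 2 of si-control or replicate 1, 2 or 4 of si-control + TNF + IFN (adjusted p = 0.0550 to 0.121). In prostanoid synthesis, Ptgs1 (COX-1) fell from 34.1, 37.3, 22.7 and 22.3 CPM to 3.17, 2.65, 0.801 and 1.269 CPM (-3.86 ± 0.59, adjusted p = 4.64e-06), while Ptgs2 (COX-2) rose by 0.91 and Ptges, which makes prostaglandin E2, by 4.93.

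Endothelial identity genes fell: 24 of 32 tested members were called lower and none higher, with a median log2 fold change of -0.91. The 8 not called were Emcn, Eng, Plvap, S1pr1, Ets1, Klf2, Klf4 and Gata2, of which Eng, S1pr1 and Ets1 were called lower with the replicate block (adjusted p = 0.00768, 1.80e-04 and 0.00997). Cdh5, which encodes VE-cadherin, was at 2167, 2878, 1507 and 1556 CPM in si-control and at 1393, 1266, 1004 and 929 CPM in si-control + TNF + IFN (-0.82 ± 0.23, adjusted p = 0.00482). Pecam1 stood at 1658, 2165, 1287 and 1384 CPM and 924, 882, 737 and 771 CPM (-0.97 ± 0.17, adjusted p = 2.74e-05). For both, the highest cytokine-treated library lay below the lowest control library, though for Cdh5 by a small margin. Among receptors, Ednrb, the endothelin B receptor, fell from 494, 688, 295 and 361 CPM to 18.4, 22.99, 64.5 and 64.3 CPM (-3.43 ± 0.45, adjusted p = 3.85e-07). Ramp3 and Ramp2, which form adrenomedullin receptors with Calcrl, fell by 3.48 and 1.82, and the angiopoietin receptors Tek and Tie1 fell by 1.81 and 1.29. Kdr (VEGFR2) fell by 0.77, from 327–347 to 183–208 CPM. The SOXF factors fell, Sox17 from 17.96, 16.7, 4.74 and 4.26 CPM to 0.624, 0.7803, 0.246 and 0.212 CPM (-4.51 ± 0.69, adjusted p = 4.84e-06), Sox18 by 2.91 and Sox7 by 0.64. Fli1, an ETS factor, fell by 1.66, Foxo1 by 0.84 and Mef2c by 0.96, and the calls of Erg (-0.56) and Tal1 (-0.21) came with overlapping groups.

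Aqp1, the endothelial water channel, showed the largest fall of all eligible genes, from 225, 234, 213 and 218 CPM to 0.576, 0.312, 0.431 and 0.159 CPM (-9.20 ± 0.68, adjusted p = 6.81e-12). Further genes with the largest falls were Scn3a, a sodium channel subunit, from 153, 190.4, 12.4 and 17.2 CPM to 0.816, 0.312, 0 and 0.159 CPM (-8.07 ± 1.595, adjusted p = 1.37e-04), and Col3a1, a fibrillar collagen, from 41.7, 45.6, 77.9 and 75.2 CPM to 0.336, 0.208, 0.801 and 0.3702 CPM (-7.16 ± 0.42, adjusted p = 5.96e-14). Scn3a was far higher in control replicates 1 and 2 than in 3 and 4, whereas Aqp1 and Col3a1 fell from even control levels or, for Col3a1, from levels that were higher in replicates 3 and 4. Ccdc3, a secreted protein of endothelium and fat, fell by 6.55, Lmcd1, a LIM-domain cofactor, by 6.44, Masp1, a protease of the lectin pathway of complement, by 5.77, and Tmprss11e, a membrane serine protease, by 5.21. Of the low-level genes among the largest falls, Pcdh20 was lower by a ratio of 117 (95% interval 32.02 to 969.7), Dkk2, a Wnt inhibitor, by 58.5 (95% interval 26.6 to 160.3), Pi16 by 52.02 (95% interval 25.02 to 130.2), Fhl1 by 60.8 (95% interval 16.5 to 507) and Frmpd1 by 42.3 (95% interval 16.3 to 157). On the other side, the largest rises not described elsewhere were Slamf8, at 0 counts in all si-control libraries and at least 229-fold higher with both cytokines, Slc15a3, a peptide and histidine carrier of endosomes, at least 127-fold higher, and Apol6, with a ratio of 3880.0 (95% interval 1074 to 32045). Among genes abundant in si-control, Nedd4, a ubiquitin ligase, fell from 2705, 3072, 2738 and 2929.8 CPM to 1344, 1374, 1454 and 1426 CPM (-1.03 ± 0.09, adjusted p = 2.14e-10), Ctnnb1 (β-catenin) by 1.29 and Cd93, a lectin-like receptor of angiogenic vessels, by 1.85. The fall of Stab1, a scavenger receptor (-1.19, adjusted p = 0.0127), was not called without si-control replicate 2 (-0.97, adjusted p = 0.0541).

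Notch and arteriovenous genes were called lower in 10 of 18 tested members and higher in 3 (median -0.78), beside 21.7% and 23.5% of all genes tested. Lfng, a glycosyltransferase that tunes Notch receptors, fell from 11.1, 8.48, 12.3 and 11.7 CPM to 1.34, 1.82, 1.85 and 2.49 CPM (-2.54 ± 0.30, adjusted p = 5.92e-08). Cxcr4 (-3.15), Nrp1 (-1.46), Ephb4 (-1.26) and Efnb2 (-0.74) fell, and Nrp2, a semaphorin and VEGF-C co-receptor, rose by 1.14, from 638–739 to 1405–1579.8 CPM. Gja4 (connexin 37) reached 2.69, 2.71, 3.08 and 2.22 CPM from 3 counts or fewer per library, a ratio of 113 (95% interval 30.99 to 943). Dll4 and Notch1 were called lower only with the replicate number as a block (adjusted p = 0.00343 and 0.0427), where 14 of the 18 were lower, and Dll4 stood at 7.86–38.4 and 2.59–20.6 CPM. Angiogenic and vasoactive factors moved both ways, with 6 of 18 higher and 6 lower (median -0.10), beside 23.5% and 21.7% of all genes tested. Esm1, a tip-cell proteoglycan, fell from 42.2, 37.7, 34.5 and 36.3 CPM to 1.49, 1.56, 2.03 and 2.59 CPM (-4.30 ± 0.30, adjusted p = 2.45e-12). Vegfa moved the other way, from 5.39, 5.99, 7.51 and 7.89 CPM to 54.9, 49.1, 53.2 and 49.2 CPM (2.94 ± 0.39, adjusted p = 3.58e-07), as did Vegfc (3.92), Pdgfa (2.33), Hbegf (1.83) and Adm (1.501). Edn1, the vasoconstrictor endothelin-1, fell by 1.13, and Angpt2 was called lower with overlapping groups.

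TGF-β and BMP genes were called lower in 12 of 29 members and higher in 4 (median -0.16), beside 21.7% and 23.5% of all genes tested. The targets Id1, Id2 and Id3, inhibitors of helix-loop-helix factors, all fell, Id2 from 66.8, 68.2, 87.4 and 98.7 CPM to 18.6, 19.1, 10.96 and 15.1 CPM (-2.33 ± 0.21, adjusted p = 4.97e-10), Id1 by 2.05 and Id3 by 0.92. Tgfbr2 fell from 767, 919.9, 609 and 601 CPM to 249, 229.6, 193 and 189 CPM (-1.75 ± 0.23, adjusted p = 3.06e-07) and Bmpr2, the type II BMP receptor, by 1.01. Ligands moved both ways: Bmp4 (-1.73) and Bmp6 (-2.25) fell, and Bmp2 rose from 3 counts or fewer per library to 13.97, 14.3, 1.48 and 1.269 CPM, a ratio of 232 (95% interval 79.1 to 1129), which was far larger in replicates 1 and 2. Grem1, a BMP antagonist, fell by 4.99. Extracellular matrix genes were called lower in 16 of 37 tested members and higher in 5, or 8 with the replicate block (median -0.30). Over all genes tested, 21.7% were called lower and 23.5% higher without the block. Besides Col3a1, the basement membrane chain Col4a5 fell from 178, 173, 165 and 165 CPM to 32.5, 32.8, 48.5 and 57.1 CPM (-1.996 ± 0.14, adjusted p = 2.08e-12), Col4a1 by 0.78, Lama5 by 1.21, Sparc by 1.11 and Tnc by 1.59. The collagenase Mmp13 rose from 0.0938, 0.05298, 0.0878 and 0.359 CPM to 64.9, 42.8, 25.6 and 23.7 CPM (7.96 ± 0.42, adjusted p = 4.29e-15), and the inhibitor Timp2 fell by 1.07.

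DNA replication genes rose in 14 of 15 members (median 0.82), while 4 of 13 mitosis genes rose and none fell, a share not far from the 23.5% of all genes tested. Ccne1, the cyclin of S-phase entry, moved from 4.31, 4.87, 6.81 and 6.05 CPM to 21.4, 21.6, 15.5 and 16.98 CPM (1.77 ± 0.16, adjusted p = 4.95e-10). Cdc6 and Cdt1, which load the replicative helicase, rose by 1.24 and 1.16, and the helicase subunits Mcm2 to Mcm7 by 0.51 to 1.08. Top2a, Aurkb, Bub1 and Foxm1 were the mitosis genes called, each with overlapping groups, and Mki67, Ccnb1, Plk1 and Cdc20 were not called. Among G1 regulators, Cdk6 rose by 1.42, Myc by 0.98 and Ccnd1 by 0.72, and Cdk4 fell by 0.51.

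Glycolysis genes rose in 13 of 14 members (median 0.87), against 2 higher and 2 lower of 17 in oxidative phosphorylation, below the shares of all genes tested. Pfkfb3, the main glycolytic activator of EC, had 52.9, 52.2, 28.1 and 26.6 CPM in si-control and 934, 891, 589 and 599.7 CPM in si-control + TNF + IFN (4.24 ± 0.31, adjusted p = 7.56e-12). Hk2 rose by 2.15 ± 0.17, Pfkp by 1.62, Slc2a1, the glucose carrier, by 0.86, and Gapdh, often used as a reference gene, by 0.72 (adjusted p = 1.77e-07). In oxidative phosphorylation, Cycs and Ndufa9 were called higher (0.66 and 0.38). The call of Sdha (-0.27) was lost without si-control replicate 3 (-0.22, adjusted p = 0.0731) and without si-control + TNF + IFN replicate 1 (-0.23, adjusted p = 0.0630).

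Endoplasmic reticulum (ER) stress genes rose in 10 of 12 members (median 0.89). Ddit3, which encodes CHOP, moved from 10.3, 8.58, 12.2 and 10.6 CPM to 91.4, 91.7, 97.9 and 83.5 CPM (3.13 ± 0.22, adjusted p = 3.40e-12), and the ATF4 targets Asns and Chac1 rose by 2.48 and 2.41, with Atf4 itself up by 1.85. Hspa5, the ER chaperone BiP, rose by 0.99, while Dnajb9 was not called, and Xbp1 was called lower only with the replicate block (adjusted p = 0.00315). In sterol synthesis and uptake only 2 of 20 genes were called, both lower, and 13 were called lower with the replicate number as a block. One of these, Stard4, a carrier of cholesterol (-1.05), lost its call on leaving out replicate 1 (-0.89, adjusted p = 0.104) or 2 (-0.96, adjusted p = 0.0807) of si-control or replicate 3 (-0.93, adjusted p = 0.0974) or 4 (-0.91, adjusted p = 0.105) of si-control + TNF + IFN. Ch25h, which makes the antiviral 25-hydroxycholesterol, rose from 13.4, 13.6, 17.5 and 16.9 CPM to 311, 327, 169 and 178 CPM (4.01 ± 0.21, adjusted p = 5.97e-15). Immediate-early and AP-1 genes were called higher in 5 of 13 members and lower in 2, beside 23.5% and 21.7% of all genes tested. Atf3 rose by 3.00, Fosl1 by 2.19 and Junb by 1.81, and Nr4a1, an orphan nuclear receptor, fell by 2.61.

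Of 8 tested genes of DNA methylation, 2 rose and 3 fell. Over all genes tested 23.5% rose and 21.7% fell, and 8 genes are too few to be set apart from these shares. Dnmt1 itself stood at 90.1, 89.1, 153 and 148 CPM in si-control and 142, 150.1, 211 and 203 CPM with both cytokines, and the groups overlapped (0.56 ± 0.33, adjusted p = 0.177). Within the replicate sets Dnmt1 was called in each, at 0.73 in replicates 1 and 2 (adjusted p = 1.90e-06) and at 0.46 in replicates 3 and 4 (adjusted p = 6.09e-05). Uhrf1, which guides DNMT1 to hemimethylated DNA, rose by 1.35, and Tet3 (-1.06), Dnmt3b (-0.76) and Dnmt3a (-0.60) fell.

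Each single cytokine was then set beside the combination. Against si-control + TNF, si-control + TNF + IFN was higher in 1916 genes (12.6%) and lower in 1287 (8.44%), 3203 in all, and with the replicate number as a block 5175 were called. Against si-control + IFN, 2385 genes (15.6%) were higher and 2053 (13.5%) lower. These comparisons share the combined group with each other and with the comparison above, so that only values of each gene are set side by side. Cxcl9 had means of 3.51 ± 0.605 CPM (SD, n = 4) with TNF, 112 ± 71.1 CPM with IFN and 3815 ± 737 CPM with both, a log2 difference of 10.08 from TNF (adjusted p = 1.94e-11) and of 5.09 from IFN (adjusted p = 9.21e-08). Nos2 stood at 16.7 ± 2.24, 6.24 ± 6.81 and 1263 ± 359 CPM in the same order, 6.24 above TNF (adjusted p = 2.24e-09) and 7.65 above IFN (adjusted p = 2.78e-10) on the log2 scale. For both genes each library of the combination lay far above every library of either single cytokine. Ccl5 had 142 ± 23.6 CPM with TNF, 21.3 ± 13.1 CPM with IFN and 1185 ± 175 CPM with both (3.06 and 5.80), and Cxcl10 had 274 ± 56.5, 289 ± 140.5 and 1747 ± 306 CPM (2.67 and 2.60), and all 4 of these differences were called.

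Other genes stood near the level of 1 cytokine. Gbp2 was at 7164 ± 1591 CPM with IFN and 6329 ± 604 CPM with both, a log2 difference of -0.18 ± 0.19, adjusted p = 0.534, against 401 ± 87.8 CPM with TNF. Pfkfb3 (0.17 ± 0.27, adjusted p = 0.697) likewise was not called against IFN, which does not show that the levels were equal. Cd274 had 473 ± 209.5 CPM with IFN and 604 ± 186 CPM with both (0.35 ± 0.23, adjusted p = 0.278, or 0.041 with the replicate block). On the TNF side, Vcam1 had 801 ± 45.8 CPM with TNF and 984 ± 95.6 CPM with both (0.30 ± 0.11, adjusted p = 0.0497, with adjusted p up to 0.153 when 1 library was left out), and 112 ± 16.02 CPM with IFN. Relb (0.07 ± 0.17, adjusted p = 0.842), Cxcl2 (-0.23 ± 0.43, adjusted p = 0.773) and Vegfc (0.12 ± 0.33, adjusted p = 0.85) were not called against TNF.

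Some genes that TNF raised were lower when IFN was added. Col6a1 was at 7.16 ± 2.81 CPM with TNF and 2.51 ± 0.423 CPM with both (-1.51 ± 0.32, adjusted p = 8.39e-04), Ifngr1 at 133 ± 4.61 and 76.03 ± 17.95 CPM (-0.81 ± 0.11, adjusted p = 2.64e-06), and Tnfsf4 at 11.8 ± 3.61 and 6.03 ± 1.93 CPM (-0.97 ± 0.22, adjusted p = 0.00145). Among the falls, Aqp1 was lowered by each cytokine, to 7.11 ± 3.995 CPM with TNF and 34.7 ± 18.1 CPM with IFN, and lay lower still with both (-4.24 against TNF and -6.52 against IFN). Id2 was at 21.8 ± 8.46 CPM with TNF and 120.3 ± 17.2 CPM with IFN and differed from IFN by -2.91 ± 0.22, adjusted p = 5.31e-11, while the difference from TNF was -0.45 ± 0.21, adjusted p = 0.131. Cd93 had 831 ± 310.5 CPM with TNF, 474 ± 99.1 CPM with IFN and 316 ± 15.98 CPM with both. Against TNF, Cdh5 was not called (-0.14), and Pecam1 (-0.24) only with the replicate block (adjusted p = 0.0236). Over the endothelial identity list the median log2 fold change from no cytokine was -0.70 with TNF, -0.20 with IFN and -0.91 with both, and over the GBP list it was 2.58, 6.49 and 6.55.

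**Figure D4:**
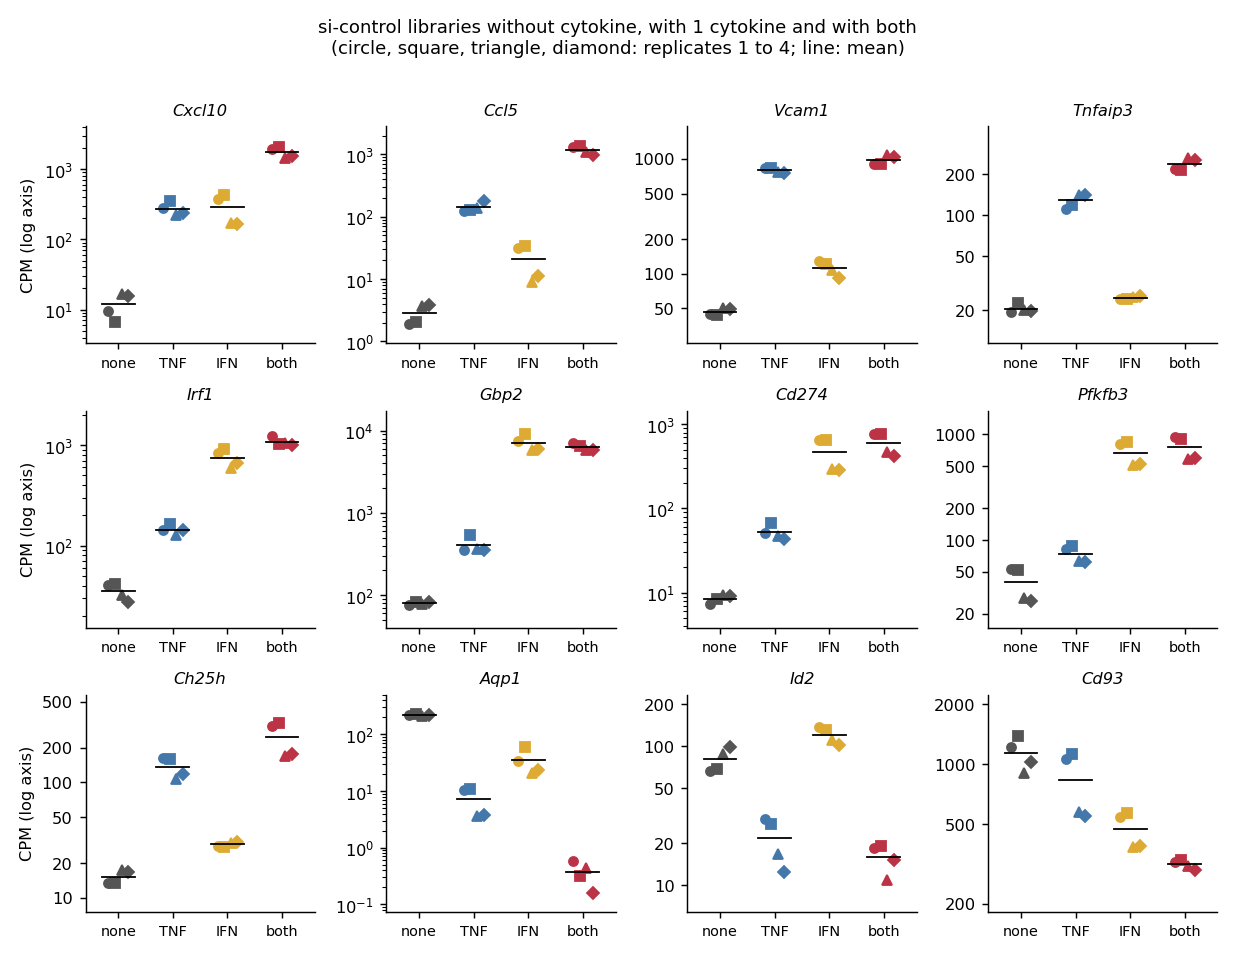
CPM (log axis) of 12 genes in si-control without cytokine, with TNF, with IFN and with both, 4 libraries per group with a bar at the mean. Cxcl10 and Ccl5 are highest with both, Vcam1 sits near its TNF level, Gbp2, Cd274 and Pfkfb3 near their IFN level, and Aqp1 and Cd93 are lowest with both.

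Departure from additivity on the log2 scale, the TNF-by-IFN interaction, was called positive in 64 genes (0.42%) and negative in 98 (0.642%), 162 in all, and 646 were called with the replicate block. The value is the log2 response to both cytokines minus the sum of the responses to each. It was negative for Ubd (-4.92 ± 0.91, adjusted p = 0.0027) and Zbp1 (-4.14 ± 0.41, adjusted p = 2.58e-07). Zbp1, for example, had 3.03 ± 0.788, 75.8 ± 9.32, 282 ± 57.6 and 399.8 ± 51.5 CPM without cytokine, with TNF, with IFN and with both. Among genes already described, Gbp10 (-3.38), Psmb9 (-2.68), Gbp2 (-2.51), Cd274 (-2.27), Cxcl10 (-1.90), Tap1 (-1.54), Irf1 (-1.499) and Vcam1 (-0.96) had negative values that passed the test. Each of these genes rose with both cytokines, but by less than the sum of its single log2 responses. The sign holds for the log2 scale only. In CPM, the mean of Cxcl10 with both cytokines, given above, exceeded its means with TNF and with IFN added together. Negative calls were made for 8 of 11 GBPs, 4 of 8 immunity-related GTPases and 5 of 5 immunoproteasome genes, and for none of 10 constitutive proteasome subunits. Positive values were found for Cd40 (3.43 ± 0.48, adjusted p = 6.70e-05), which had 0.926 ± 0.398, 1.6 ± 0.613, 0.662 ± 0.307 and 12.3 ± 4.61 CPM in the same order, for Mxd1, a partner of MAX (2.85 ± 0.51, adjusted p = 0.00175), and for Traf1 (1.18 ± 0.23, adjusted p = 0.00479). All these calls of single genes held when any 1 of the 16 libraries of the 4 si-control groups was left out. Cxcl9 (-0.43, adjusted p = 0.977) and Nos2 (1.48, adjusted p = 0.8) were not called, and the SE of 1.275 and 1.17 are too wide to place their departure from additivity on either side of 0.

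The same combination was given to cells with siRNA against Dnmt1, in libraries that are not shared with the comparison above. There 6125 genes were called, and 4976 were called with the same direction under both siRNAs, 72.2% of the calls in si-control and 81.2% of those in si-dnmt. The siRNA interaction, the response in si-dnmt minus that in si-control, was called positive in 24 genes (0.157%) and negative in 57 (0.374%), 81 in all. Its count rose to 638 with the replicate block and fell to 46 without si-control replicate 1, to 47 without si-dnmt + TNF + IFN replicate 3 and to 44 without its replicate 4. Zbp1 had 24.2 ± 14.5 CPM in si-dnmt and 417 ± 41.2 CPM in si-dnmt + TNF + IFN, a smaller rise than in si-control (interaction -2.93 ± 0.41, adjusted p = 2.99e-04). Psmb9 moved from 9.17 ± 2.23 to 177 ± 11.6 CPM (-1.62 ± 0.26, adjusted p = 0.00202) and Vcam1 from 113 ± 21.1 to 1325 ± 69.7 CPM (-0.85 ± 0.15, adjusted p = 0.00635). In all 3 the si-dnmt cells started from a higher level without cytokine than si-control cells. Mmp13 (-3.70 ± 0.59, adjusted p = 0.00188) and Oas3 (-2.12 ± 0.39, adjusted p = 0.00635) also rose less in si-dnmt. Col3a1 fell less in si-dnmt (3.14 ± 0.56, adjusted p = 0.00568). Ace, the angiotensin-converting enzyme, changed by -2.33 in si-control and by -0.51 in si-dnmt (1.82 ± 0.34, adjusted p = 0.0079), and Tma16 rose more in si-dnmt (1.71 ± 0.22, adjusted p = 6.68e-05). These 8 genes kept the call when any 1 of the 16 libraries of the 4 groups was left out. For Cxcl9 (-3.27 ± 1.33, adjusted p = 0.396), Cxcl10 (-1.30 ± 0.39, adjusted p = 0.159) and Cd274 (-1.10 ± 0.34, adjusted p = 0.184) the interaction was called only with the replicate block (adjusted p = 0.0144, 0.0383 and 0.00618).

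**Figure D5:**
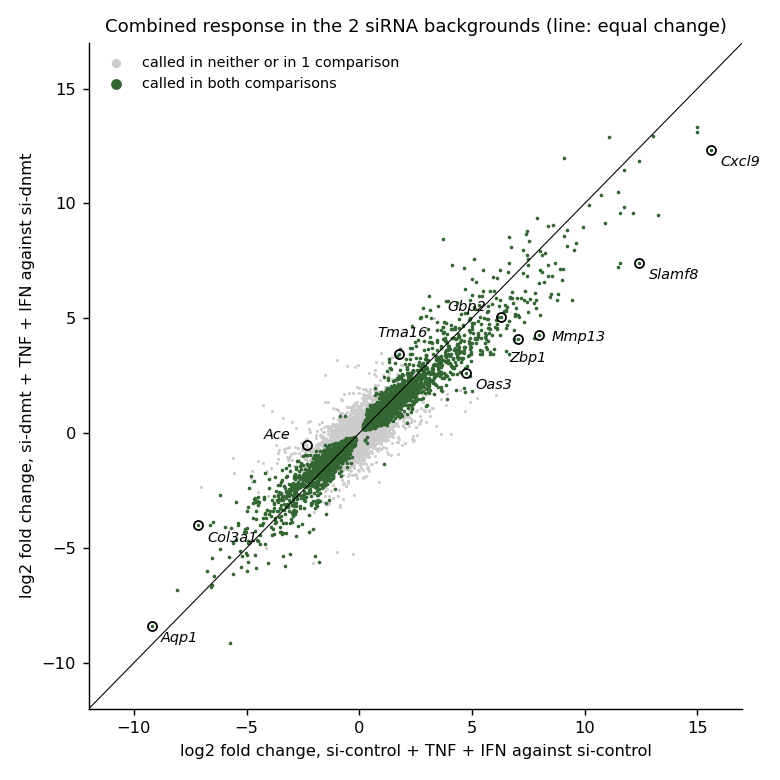
Log2 fold change with TNF + IFN in si-control (horizontal) against that in si-dnmt (vertical) for 15254 genes, with genes called in both comparisons in green and the line of equal change drawn. Most green genes lie in the same direction on both axes (4976), and of the labelled genes Zbp1, Mmp13 and Oas3 lie below the line and Col3a1, Ace and Tma16 above it.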

How the data were processed

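Veravec mouse lung EC received control siRNA or siRNA against Dnmt1 and then no cytokine, TNF, IFN or both, with 4 libraries in each of 8 groups, grouped by their labels. Reads were trimmed with cutadapt 4.9, checked with FastQC 0.12.1 and MultiQC 1.27.1 and counted per gene with featureCounts according to the submitters' processing notes, which also name DESeq2. The deposited values are raw counts per gene, not scaled, 1 table per library and 1 merged table in which the authors summed the 203 identifiers that share a symbol (54532 identifiers, 54429 symbols). The sums were checked against the merged table and 0 cells differed, and 0 columns of per-sample values were left unused. Aligner, build, annotation and strand setting were not given in the sources used here, and reads of overlapping or antisense genes and of near-identical copies may be shared.

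Counts were fitted in edgeR 4.0.16 (R 4.3.3, limma 3.58.1) with the quasi-likelihood test over all 32 libraries and 8 group means, after filterByExpr at a minimum count of 10 (15254 genes, at least 99.91% of the counts of each library) and TMM scaling. Genes were called at a Benjamini-Hochberg adjusted p under 0.05 over all genes tested, and SE is the absolute log2 fold change over the square root of F. CPM use the TMM-scaled library sizes. With 4 libraries against 4, an exact two-sided permutation test of a single gene cannot go below p = 0.0286. Bounds for genes without counts took 3 counts per library, ratios of few counts have exact 95% intervals, and both cover counting error only. Depth of 17734651 to 23657734 counts per library limits genes under about 1 CPM most. Promoter windows and motifs were read with Python 3.11.15, pandas 2.3.3 and NumPy 2.4.6, and figures drawn with Matplotlib 3.10.9. The edgeR fit was also run on simulated counts with as many planted rises as falls, most genes unchanged and no replicate sets. Those settings differ from these data, so that the run does not test the scaling or the error rate here.

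Named genes were 12 fixed genes, the 12 largest rises and the 12 largest falls, the 3 largest changes in each role of each gene list, the 4 most positive and the 4 most negative values of each interaction among those called, and the 6 most abundant genes with a log2 fold change of at least 2 or at most -1. Apart from the 12, they had to be called with and without the replicate block, with no overlap between groups, the same direction in both replicate sets, a mean of at least 1 CPM in the higher group and a symbol that is no placeholder (207 genes in all). The comparison, gene lists, markers and tests were chosen with earlier results of these data known. Replicate numbers come from the labels. Deviations from the group means correlated at 0.375, 0.251, 0.321 and 0.33 between libraries of the same number in the 2 groups. Between different numbers of the same set (1 with 2, or 3 with 4) they correlated at 0.283, 0.328, 0.326 and 0.321, and across sets at -0.36 to -0.259. The libraries thus fell into 2 sets, and the values do not show that single numbers pair them. The main fit held no term for number or set, and the number served as a block in an alternative fit. Alternatives were the replicate number as a block, DESeq2 1.42.0, RLE scaling, no low-count filter, a fit of the compared groups only, each replicate set alone, and each library left out in turn. Some genes are not reported here.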

Additional observations from a re-analysis of the deposited data

Results flagged for a closer look

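A single library stood apart from the other 3 of its group, by the gap to its nearest neighbour as a share of the group's range, in 12 of 406 sets of a named gene and a group, where chance gives about 1 in 20. In si-control these were replicate 2 for Cxcl9 (0.1589 CPM), Cxcl3 (4.238 CPM) and Il27 (0.05298 CPM), replicate 1 for Ccl8 (0.09378 CPM) and Fam84a (1.125 CPM), and replicate 4 for Mmp13 (0.3585 CPM). In si-control + TNF + IFN they were replicate 1 for Psmb9 (216.7 CPM) and Lmcd1 (0.5281 CPM), replicate 2 for Nfkb2 (151.9 CPM) and Fosl1 (68.62 CPM), and replicate 3 for Pcdh20 (0.1232 CPM) and Dkk2 (0.1848 CPM). In each of these genes the groups did not overlap, which the naming rule required of all but the fixed gene Cxcl9.

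The response to TNF + IFN differed between si-dnmt and si-control, by the interaction test, in 16 named genes. The difference in log2 response, si-dnmt minus si-control, was negative for Slamf8 (-5.0095), Mmp13 (-3.7012), Zbp1 (-2.9277), Robo1 (-2.6253), Oas3 (-2.1205), Gbp8 (-1.7036), Psmb9 (-1.6199), Tap1 (-1.2567), Gbp2 (-1.2298), Herc6 (-1.122), Hk2 (-1.0684) and Vcam1 (-0.847). Slamf8 was at 0 counts in all si-control libraries, so that its value depends on the prior count of the fit and is no bound. It was positive for Col3a1 (3.1431), Cep57l1 (1.8535), Ace (1.8248) and Tma16 (1.7137). Leaving out 1 of the 16 libraries in turn ended the call at least once for Slamf8 (adjusted p up to 0.0644), Robo1 (0.0711), Gbp8 (0.0586), Tap1 (0.0516), Gbp2 (0.0854), Herc6 (0.0824), Hk2 (0.0824) and Cep57l1 (0.11), and for none of the others.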

How the results depend on the processing

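The counts of genes called higher and lower with both cytokines (3587 and 3303) stayed within 1.5 times under every alternative, from 2882 (compared groups only) to 4276 (replicate block) higher and from 2812 (no low-count filter) to 4123 (replicate block) lower. Against si-control + TNF, the 3203 calls became 5175 with the replicate block and 5600 in replicates 1 and 2 alone. The 162 calls of the TNF-by-IFN interaction became 646 with the replicate block, 293 with DESeq2, 94 with the compared groups only, 1632 in replicates 1 and 2 alone and 661 in replicates 3 and 4 alone. The 81 calls of the siRNA interaction became 638, 205, 41, 747 and 1795 under the same settings, and ranged from 44 to 97 with 1 library left out. The cause was not tested. Of the 207 named genes none changed direction under any alternative. The replicate block changed none of their calls in the comparison of both cytokines with none. Apart from the fixed genes, the naming rule already required a call with the block and the same direction in each replicate set. For those genes, the kept calls under the block and the kept direction in the replicate sets follow from their selection and test nothing. Calls were lost in 36 of 1656 fits without 1 library, 1 with the compared groups only (Tnfsf4), 3 with no low-count filter (Ifnar1, Tfpi, Sdha), 3 in replicates 1 and 2 alone (Tnfsf4 and Stat4 among them) and 5 in replicates 3 and 4 alone (Ifnar1, Bcl2l1, Anxa2, Acvr1, Dnmt3b), and Dnmt1 was called in each set alone. Of 60 list medians, 2 moved by more than their replicate spread with the compared groups only, 9 and 11 in the 2 replicate sets and 36 of 480 with 1 library left out. Adjusted p-values of genes under about 1 CPM are limited by depth.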

Other observations

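Antioxidant and metal-handling genes were called higher in 2 of 16 tested members and lower in 2 (median -0.20), and in 3 and 5 with the replicate block. Without the block both shares lay below the 23.5% and 21.7% of all genes tested. Sod2, the mitochondrial superoxide dismutase, was at 65.2, 87.5, 33.03 and 33.7 CPM in si-control and at 507, 525, 431 and 457 CPM in si-control + TNF + IFN (3.13 ± 0.38, adjusted p = 9.08e-08). Sod1, the cytosolic enzyme, moved from 159, 126, 188 and 173 CPM to 91.8, 102, 96.2 and 96.4 CPM (-0.74 ± 0.16, adjusted p = 3.13e-04), so that the mitochondrial gene rose and the cytosolic gene fell. Keap1, the inhibitor of NRF2, rose by 1.12, while the NRF2 targets Hmox1 and Nqo1 were not called.

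Among the 4984 genes called with both cytokines under both siRNAs, 8 went in opposite directions. Selenbp1 had a log2 fold change of 1.09 in si-control and -1.35 in si-dnmt, and Haglr, Gm17745 and Slit2 had -0.83 and 0.75, -0.65 and 0.73, and 0.36 and -0.44. The values of AW209491 (0.25 and -0.32), Fam210a (0.25 and -0.31), Gpi1 (0.33 and -0.19) and Nek1 (0.28 and -0.32) were smaller. These genes were chosen after their values were seen.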
